A study of Mus musculus with 32 samples.

Results

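Genes of simple epithelia were followed through all 11 conditions of a mouse embryonic stem (ES) cell study: the keratins *Krt7*, *Krt8*, *Krt18* and *Krt19* and the transcription factors *Elf3* and *Tfap2c*. They were chosen by gene symbol and correspond to 6 of the 51826 genes in the deposited count table, with 1 row each. The table holds 32 RNA-seq libraries of ES cells that carried or lacked *Etv5*, *Rbpj* and *Tcf3* (gene symbol *Tcf7l1*), compared in self-renewal and after its withdrawal.

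The control line RGd2 carries a destabilised GFP reporter at the *Rex1* (*Zfp42*) locus, and every mutant was made from it. In each RGd2 group 2 libraries came from the parental culture and 1 from a clonal derivative. The medium 2i is serum-free N2B27 with the MEK inhibitor PD0325901 and the GSK3 inhibitor CHIR99021 (CH). RGd2 cells were profiled in 2i (3 libraries), after 5 passages in 2i (2i-p5, 3), after 2 passages in CH alone (CH-p2, 3), and 16 h (N16h, 3) or 72 h (N72h, 3) after transfer to N2B27 without inhibitors. Cells of the 2i and N16h groups came from CH with LIF through a short culture in 2i, a step that is not marked for the other groups, although mutant clones were first expanded in CH with LIF. *Rbpj*-KO cells were profiled in 2i (3) and at N16h (3), *Etv5*-KO cells in 2i (3) and at N16h (2), the *Etv5*/*Rbpj* double mutant ER-dKO after 5 passages in CH (3) and the *Etv5*/*Tcf3*/*Rbpj* triple mutant ETR-tKO after 5 passages in N2B27 (3). Within a group, each mutant library came from a separately labelled CRISPR/Cas9 clone, so that the spread within a mutant group is a spread between clones. The ETR-tKO clones are labelled (ETc1)Rc53, (Tc1)ERc2 and (Tc1)ERc10. The last 2 share the prefix Tc1 and may stem from 1 parent clone, which would make them less independent. The single-mutant clones at N16h were also profiled in 2i. Clone c16 of *Etv5*-KO has a 2i library and none at N16h here. The study describes the RGd2 and *Rbpj*-KO replicates in 2i and at N16h as plated in parallel, so the p-values measure the spread between lines and parallel platings, while for the parental libraries of the other groups no source used here says whether they were separate cultures.

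Keratins are the intermediate filament proteins of epithelial cells and assemble as obligate pairs of a type II and a type I chain. *Krt8* (type II) and *Krt18* (type I) form the pair of simple, single-layered epithelia and are the first keratins made in the mouse embryo, where they mark the trophectoderm. *Krt7* (type II) and *Krt19* (type I) join them in trophoblast and in ductal epithelia. *Elf3* is an ETS-family factor of epithelial differentiation, and *Tfap2c* encodes AP-2γ, a factor of trophoblast, epithelium and germ cells that is also made by naive ES cells. *Etv5* is another ETS factor, *Rbpj* is the DNA-binding factor of the Notch pathway and *Tcf3* is a TCF/LEF repressor that is relieved by GSK3 inhibition.

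In GRCm38/mm10, *Krt8* (ENSMUSG00000049382.9, chr15:101996711-102004342, minus strand) and *Krt18* (ENSMUSG00000023043.6, chr15:102028216-102032026, plus strand) lie next to each other with 23873 bases between them. *Krt7* (ENSMUSG00000023039.16, chr15:101411043-101430313, plus strand) lies on the same chromosome. The other members are *Krt19* (ENSMUSG00000020911.14, chr11:100140810-100148665, minus strand), *Elf3* (ENSMUSG00000003051.13, chr1:135253575-135258568, minus strand) and *Tfap2c* (ENSMUSG00000028640.11, chr2:172549593-172558622, plus strand). The sequences before the starts of *Krt8*, *Krt18* and *Elf3* are shown because these genes changed most often in the mutants of a Notch-pathway and an ETS factor, and capitals mark TGGGAA, the core word bound by RBPJ, on either strand, or TATAA, the TATA box word. They are RefSeq promoter windows of GRCm38.p6, read on the strand of the gene, at chr15:102004343-102004592 for *Krt8*, chr15:102027966-102028215 for *Krt18* and chr1:135258569-135258722 for *Elf3*, whose window is shown as far as it lies outside the deposited gene.
Krt8: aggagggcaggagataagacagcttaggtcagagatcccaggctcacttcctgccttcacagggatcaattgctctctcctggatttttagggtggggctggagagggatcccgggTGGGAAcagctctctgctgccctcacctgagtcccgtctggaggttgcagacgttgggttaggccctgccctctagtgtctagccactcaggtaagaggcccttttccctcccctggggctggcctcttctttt
Krt18: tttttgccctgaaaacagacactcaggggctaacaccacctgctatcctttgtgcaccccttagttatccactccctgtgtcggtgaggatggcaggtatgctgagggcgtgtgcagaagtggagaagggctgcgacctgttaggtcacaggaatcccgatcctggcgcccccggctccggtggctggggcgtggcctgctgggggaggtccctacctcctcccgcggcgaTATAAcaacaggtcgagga
Elf3: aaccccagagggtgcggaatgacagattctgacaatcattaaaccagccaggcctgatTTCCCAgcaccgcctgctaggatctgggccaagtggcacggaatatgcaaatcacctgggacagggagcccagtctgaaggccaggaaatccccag
TGGGAA stood 134 bases before the start of *Krt8* and, on the other strand, 192 bases before the RefSeq start of *Elf3*, which lies 96 bases inside the deposited gene, and was absent from the *Krt18* window. TATAA stood 19 bases before the start of *Krt18*, and the AP-2 word GCCNNNGGC was found 83 bases before it. The *Krt7* window lies within the deposited gene, since its RefSeq start is further in, and held the AP-2 word 146 and 70 bases before that RefSeq start. Neither the ETS word CCGGAA nor the TCF/LEF word CTTTGA was found in these 4 windows. Other forms of these sites were not searched, so the windows may hold other words that such factors bind. Over all 32841 windows of the table, searched on both strands, TGGGAA was held by 21.6%, GCCNNNGGC by 13.7%, TATAA by 22.8%, CCGGAA by 12% and CTTTGA by 13.8%. A match is a word in a window and not a bound site.

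Total gene counts ranged from 5986857 to 71439411 per library with a median of 29940141, and the shallowest library was RGd2 2i replicate 33. Counts were scaled by the 52 synthetic spike-in RNAs detected in every library (normalized counts), and FPKM is counts per kilobase of exon, scaled to the gene counts of the library. A gene is said to have risen or fallen where the edgeR quasi-likelihood test gave an adjusted p below 0.05 over 19037 genes and the mean FPKM reached 1 in either group. The targeted genes were checked first. *Etv5* was at 14032 to 16691 normalized counts in RGd2 2i and at 2080 to 2370 in *Etv5*-KO 2i, *Rbpj* at 12254 to 12690 in RGd2 N16h and 2482 to 2781 in *Rbpj*-KO N16h, and *Tcf7l1* at 460 to 588 in RGd2 2i-p5 and 29.0 to 120 in ETR-tKO. In ER-dKO, *Rbpj* ranged from 1131 to 3468, which overlapped the 2813 to 3365 of RGd2 2i-p5. In bulk RNA, fewer cells with a transcript and less transcript per cell cannot be told apart.

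All 4 keratins were low in self-renewing RGd2 cells and had higher counts both after 72 h in N2B27 and after 2 passages in CH, whereas *Elf3* was high in 2i and lower in both. In RGd2 2i-p5 the mean level per length was 36.4 FPKM ± 2.31 (SD, n = 3) for *Elf3*, 16.8 ± 3.19 for *Tfap2c*, 3.38 ± 0.752 for *Krt18* and 3.22 ± 0.393 for *Krt8*, while *Krt19* was at 0.265 ± 0.18 and *Krt7* at 0.0648 ± 0.0357. At N72h *Krt18* was at 118 FPKM ± 2.94, *Krt8* at 58.0 ± 3.1, *Elf3* at 4.99 ± 0.616, *Krt19* at 4.86 ± 0.838, *Krt7* at 0.789 ± 0.0877 and *Tfap2c* at 0.609 ± 0.0429. The order of the members per length was thus led by *Elf3* in 2i-p5 and by *Krt18* at 72 h.

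At 72 h, 5 of the 6 members were called against 2i-p5, 3 higher and 2 lower, where 57.0% of 12253 genes with an FPKM of at least 1 were called and the median log2 change of all genes was 0.09. *Krt8* had normalized counts of 143, 124 and 129 in 2i-p5 and 2181, 2656 and 2568 at N72h. The groups did not overlap, and the log2 fold change was 4.24 ± 0.22 (SE), or 18.8-fold (adjusted p = 7.84e-20). *Krt18* was at 110, 133 and 80.7 in 2i-p5 and at 3547, 4172 and 3918 at N72h, a log2 fold change of 5.18 ± 0.23 (adjusted p = 6.41e-22). These groups did not overlap either. *Krt19* was at 18.7 or less in every 2i-p5 library and at 168, 265 and 208 at N72h, a log2 fold change of 4.47 ± 0.53 (adjusted p = 2.25e-09). *Krt7* was at 9.37, 5.23 and 16.3 and then at 139, 127 and 125 normalized counts. Its log2 fold change was 3.59 ± 0.51 (adjusted p = 1.63e-07), but its FPKM stayed below 1 in every condition, so it was never called.

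In CH-p2, 4 of the 6 members were called against 2i-p5, 3 higher and 1 lower, beside 42.1% of all genes and a median log2 change of 0.12. *Krt8* was at 2607, 2533 and 1582 normalized counts (log2 fold change 4.10 ± 0.22, adjusted p = 1.15e-18) and *Krt18* at 2227, 1978 and 1436 (4.14 ± 0.22, adjusted p = 1.93e-18). *Krt19* reached 641, 489 and 362, its highest level of the study, with a log2 fold change of 5.69 ± 0.52 (adjusted p = 9.07e-12). *Krt7* was at 71.9, 44.8 and 55.7 (2.39 ± 0.53, adjusted p = 3.79e-04). The library of the clonal derivative was the lowest of its group for *Krt8*, *Krt18* and *Krt19*, and without it the *Krt8* log2 fold change was 4.29. The control groups of both comparisons were the same 3 libraries.

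**Figure D1:**
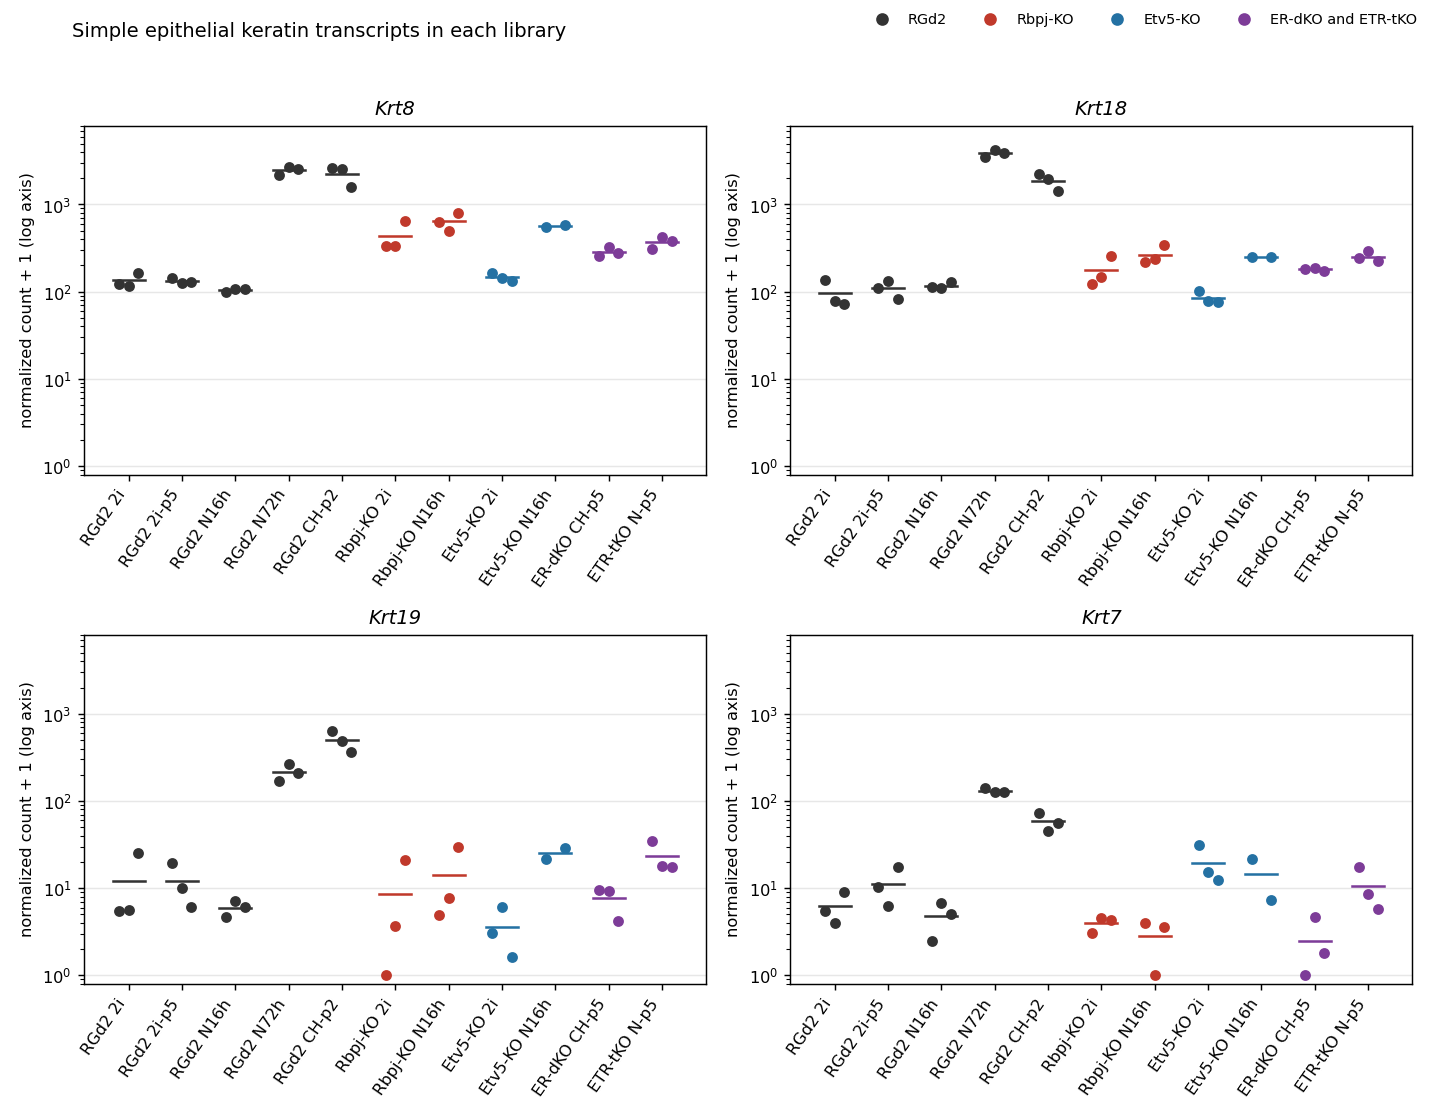
Spike-in normalized counts plus 1 of *Krt7*, *Krt8*, *Krt18* and *Krt19* on a logarithmic axis in each of the 11 conditions. Points are libraries and short lines are group means. For *Krt8* the N72h and CH-p2 libraries lie between 1582 and 2656 and all others between 97.0 and 791.

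After 16 h in N2B27 the keratins of RGd2 cells had not passed the test in either direction, while both factors had fallen. Against RGd2 in 2i, 2 of the 6 members were called, both lower. Of all genes 45.9% were called (1012 higher and 4380 lower), with a median log2 change of -0.23. *Krt8* was at 121, 116 and 165 normalized counts in 2i and 97.0, 105 and 106 at N16h (log2 fold change -0.30 ± 0.23, adjusted p = 0.313). *Krt18* was at 134, 78.2 and 72.2 and then at 111, 109 and 129 (0.21 ± 0.23, adjusted p = 0.517), and its sign turned to -0.0043 (log2) without 2i replicate 32. *Krt19* stayed at 24.1 or less in all 6 libraries.

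*Elf3* had fallen within 16 h and was still low at 72 h. Normalized counts were 2879, 2311 and 2348 in RGd2 2i and 321, 308 and 234 at N16h, without overlap. The log2 fold change was -3.12 ± 0.14 (adjusted p = 1.2e-20). At N72h *Elf3* was at 212, 283 and 289 against 1862, 1922 and 1718 in 2i-p5 (-2.81 ± 0.14, adjusted p = 1e-19), and the N16h and N72h ranges overlapped. In CH-p2 it was at 624, 627 and 520, a log2 fold change of -1.63 ± 0.14 (adjusted p = 9.98e-13).

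*Tfap2c* separated the media in which the keratins were both high. It was at 854, 639 and 931 normalized counts in RGd2 2i and 96.3, 90.9 and 96.6 at N16h (log2 fold change -3.08 ± 0.17, adjusted p = 2.45e-18). At N72h it was at 51.5, 51.2 and 55.1 against 1237, 1279 and 1710 in 2i-p5 (-4.73 ± 0.18, adjusted p = 1.59e-23). In CH-p2 it was at 1960, 1879 and 1488, which overlapped 2i-p5. The log2 difference there was 0.33 ± 0.14 (adjusted p = 0.0675), and it passed the test without 2i-p5 replicate 3 (0.50, adjusted p = 0.0128), without CH-p2 replicate 6 (0.44, adjusted p = 0.024) and against RGd2 in short 2i (1.16, adjusted p = 2.23e-08). The controls themselves differed for *Tfap2c*: 2i-p5 was above 2i by 0.83 ± 0.15 (adjusted p = 4.4e-05), 1 of 2 called members in a comparison in which 52.2% of all genes were called and the median log2 change was -0.35. The other was *Elf3*, at -0.46 ± 0.13 (adjusted p = 0.00557), which was -0.12 (adjusted p = 0.42) when the counts were scaled by the trimmed mean of M values (TMM) over genes, and -0.34 (adjusted p = 0.0691) without 2i replicate 31.

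**Figure D2:**
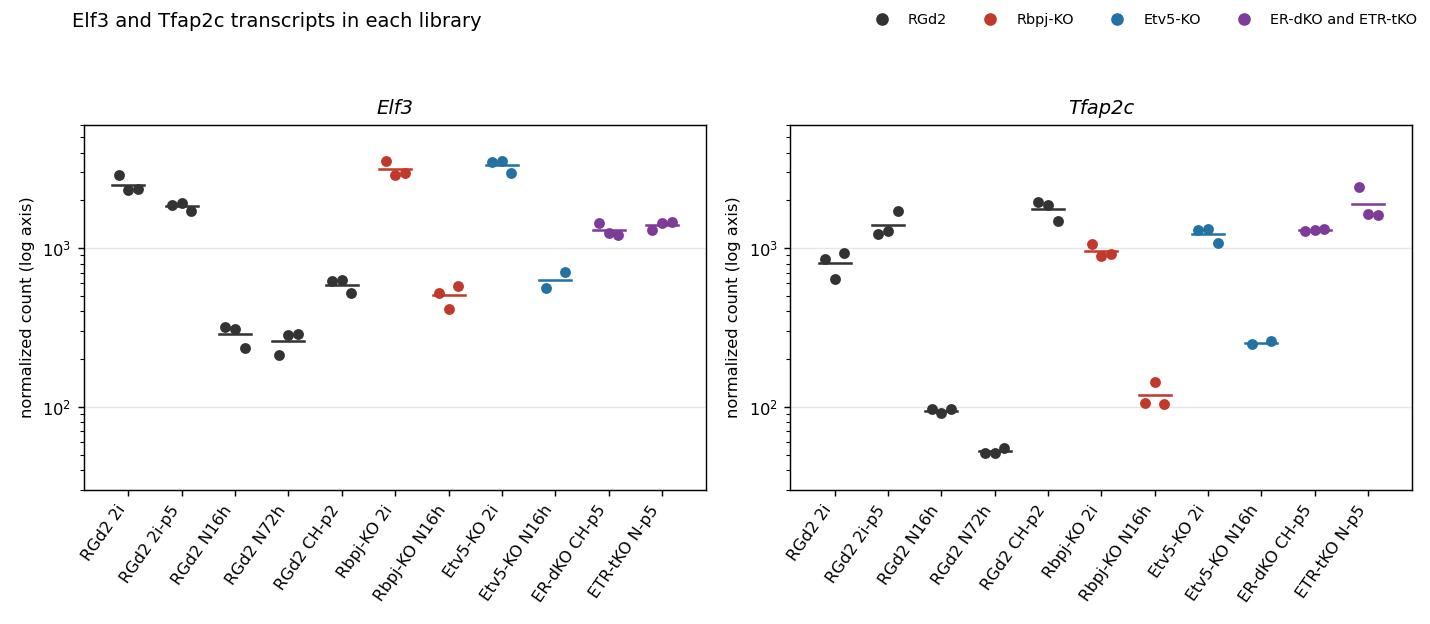
Spike-in normalized counts of *Elf3* and *Tfap2c* on a logarithmic axis in each of the 11 conditions. Points are libraries and short lines are group means. *Tfap2c* lies between 1488 and 1960 in RGd2 CH-p2 and between 51.2 and 55.1 in RGd2 N72h.

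In 2i, *Krt8* and *Krt18* were higher in *Rbpj*-KO than in RGd2 cells. Of the 6 members 2 were called, both higher, beside 11.3% of all genes (605 higher and 706 lower) and a median log2 change of -0.04. *Krt8* was at 335, 332 and 645 normalized counts in *Rbpj*-KO 2i, all above the 116 to 165 of RGd2 2i (log2 fold change 1.81 ± 0.21, adjusted p = 4.69e-08). *Krt18* was at 123, 148 and 256, which overlapped RGd2 2i (0.86 ± 0.23, adjusted p = 0.00969). The highest value of both keratins came from clone c36. Without that library (replicate 30) the *Krt8* log2 fold change was 1.39 (adjusted p = 3.37e-06) and that of *Krt18* was 0.46 (adjusted p = 0.295), and *Krt18* was also not called without RGd2 2i replicate 32 (0.65, adjusted p = 0.131). *Krt19* was at 0, 2.67 and 20.1 (0.46 ± 0.75, adjusted p = 0.792), *Elf3* at 3537, 2903 and 2965 (0.31 ± 0.13, adjusted p = 0.13) and *Tfap2c* at 1063, 888 and 926 (0.26 ± 0.15, adjusted p = 0.319). The *Elf3* difference passed the test under TMM scaling (0.36, adjusted p = 0.0113) and without RGd2 2i replicate 31 (0.43, adjusted p = 0.043).

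At N16h the difference between *Rbpj*-KO and RGd2 covered both keratins and *Elf3*. Of the 6 members 3 were called, all higher, beside 22.2% of all genes (2203 higher and 400 lower) and a median log2 change of 0.14. *Krt8* was at 630, 497 and 791 normalized counts against 97.0 to 106 in RGd2 (2.64 ± 0.20, or 6.22-fold, adjusted p = 5.77e-13). *Krt18* was at 220, 234 and 343 (1.20 ± 0.21, adjusted p = 3.08e-05) and *Elf3* at 519, 414 and 579 (0.80 ± 0.14, adjusted p = 3.09e-05). These 3 genes did not overlap between the genotypes, but neither did *Tfap2c*, which was not called, so this does not mark the called genes. The share of all genes without overlap was not counted. Clone c36 (replicate 21) was again the highest for both keratins, and without it *Krt8*, *Krt18* and *Elf3* remained called at log2 fold changes of 2.46, 0.97 and 0.69. *Krt19* was at 3.94, 6.79 and 28.4 (1.27 ± 0.68, adjusted p = 0.215) and *Tfap2c* at 106, 143 and 105 (0.31 ± 0.18, adjusted p = 0.272).

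In *Etv5*-KO cells in 2i, *Krt8* and *Krt18* did not pass the test and the 2 factors were higher. Of the 6 members 2 were called, both higher, beside 33.8% of all genes (706 higher and 3214 lower) and a median log2 change of -0.20. *Krt8* was at 162, 144 and 131 normalized counts (0.20 ± 0.22, adjusted p = 0.534) and *Krt18* at 102, 77.2 and 74.6 (-0.24 ± 0.23, adjusted p = 0.481, and 0.0183 under TMM scaling). The 95% intervals of these differences, from the model's standard errors, were -0.23 to 0.63 for *Krt8* and -0.70 to 0.22 for *Krt18*. *Tfap2c* was at 1305, 1317 and 1081, above every RGd2 library (0.63 ± 0.15, adjusted p = 0.00105). *Elf3* was at 3492, 3540 and 2985 (0.41 ± 0.13, adjusted p = 0.0158), and lost its call without RGd2 2i replicate 32 (0.35, adjusted p = 0.0778), *Etv5*-KO replicate 25 (0.37, adjusted p = 0.0505) or replicate 26 (0.36, adjusted p = 0.0685). *Krt7* was at 30.5, 14.3 and 11.3 (2.12 ± 0.63, adjusted p = 0.0106) with an FPKM of 0.103, all above RGd2 2i (8.03 or less), and *Krt19* at 2.08, 5.04 and 0.627 (-1.45 ± 0.89, adjusted p = 0.231).

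At N16h, *Etv5*-KO cells had *Krt8* and *Krt18* at levels close to those of *Rbpj*-KO cells. Of the 6 members 4 were called against RGd2, all higher. Of all genes 32.4% were called (3425 higher and 380 lower), with a median log2 change of 0.23. *Krt8* was at 558 and 580 normalized counts in the 2 clones (2.47 ± 0.21, adjusted p = 1.18e-11) and *Krt18* at 250 and 246 (1.10 ± 0.22, adjusted p = 1.97e-04). *Elf3* was at 558 and 705 (1.13 ± 0.15, adjusted p = 1.99e-07) and *Tfap2c* at 250 and 259 (1.43 ± 0.18, adjusted p = 6.3e-08). All 6 members were without overlap between the 2 genotypes, *Krt7* and *Krt19* included, so this does not set the 4 called genes apart. The share of all genes without overlap was not counted. *Krt19* was at 20.5 and 28.0 against 3.68 to 6.23 (2.23 ± 0.62, adjusted p = 0.00624) and *Krt7* at 20.5 and 6.30 (1.74 ± 0.64, adjusted p = 0.0398), both below an FPKM of 1.

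The single mutants were also compared with each other, and the change of their difference between 2i and N16h was not tested. In 2i, *Rbpj*-KO was above *Etv5*-KO for *Krt8* by 1.61 ± 0.20 (adjusted p = 3.44e-08) and for *Krt18* by 1.09 ± 0.22 (adjusted p = 1.79e-04) on the log2 scale, the 2 called members beside 26.3% of all genes and a median of 0.16. *Tfap2c* was at -0.37 ± 0.14 (adjusted p = 0.0612), and passed under TMM scaling (-0.53, adjusted p = 0.00923) and without *Etv5*-KO 2i replicate 27 (-0.46, adjusted p = 0.0434) or *Rbpj*-KO 2i replicate 28 (-0.44, adjusted p = 0.0487). At N16h only *Tfap2c* was called, lower in *Rbpj*-KO by a log2 difference of -1.12 ± 0.18 (adjusted p = 2.03e-05), beside 17.9% of all genes and a median of -0.09. The *Krt8* difference was 0.17 (adjusted p = 0.669) with a 95% interval of -0.23 to 0.57, and the *Krt18* difference 0.09 (adjusted p = 0.85) with an interval of -0.34 to 0.52. Both turned sign without *Rbpj*-KO replicate 21, at -0.01 and -0.13.

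**Figure D3:**
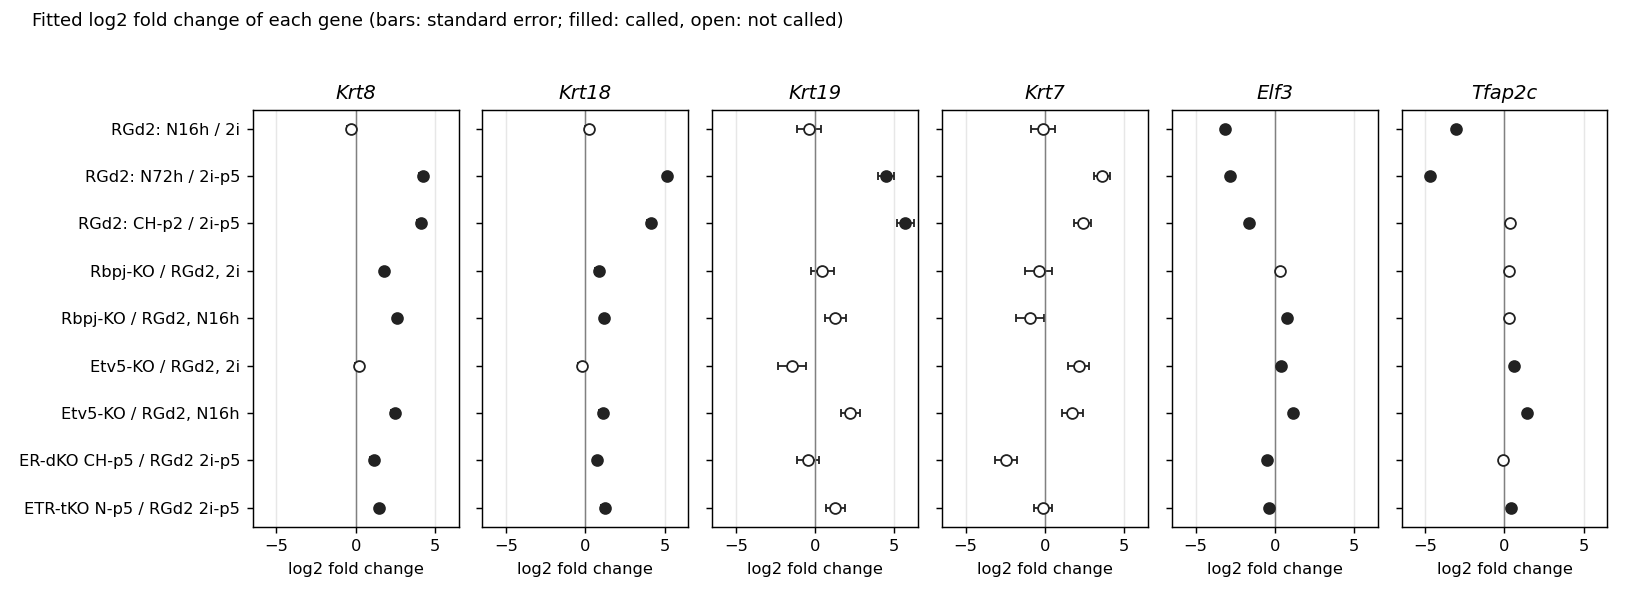
Log2 fold changes of the 6 members in the comparisons described, with bars of 1 standard error from the edgeR model. Filled points passed the test and the FPKM minimum. *Krt8* is at 1.81 in *Rbpj*-KO and 0.20 in *Etv5*-KO cells in 2i, and at 2.64 and 2.47 at N16h.

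Within each single mutant, both factors fell over 16 h in N2B27. In *Rbpj*-KO cells 3 members were called, 1 higher and 2 lower, beside 27.8% of all genes and a median of -0.04. *Elf3* changed by -2.63 ± 0.14 (adjusted p = 2.34e-18), *Tfap2c* by -3.03 ± 0.17 (adjusted p = 9.55e-18) and *Krt8* by 0.53 ± 0.19 (adjusted p = 0.0348). The *Krt8* value depended on the clones, at 0.94 (adjusted p = 1.53e-04) without 2i replicate 30 and between 0.35 and 0.54 with its call lost (adjusted p of 0.199, 0.243, 0.0672 and 0.249) without replicates 28, 29, 19 or 21. *Krt18* was at 0.55 ± 0.21 (adjusted p = 0.0507), and passed with the clone as a block (0.61, adjusted p = 0.00532), without 2i replicate 30 (0.94, adjusted p = 0.0014) or N16h replicate 19 (0.67, adjusted p = 0.0314), and under TMM scaling (0.53, adjusted p = 0.0278). In *Etv5*-KO cells 4 members were called, 2 higher and 2 lower, beside 40.6% of all genes and a median of 0.19. *Krt8* rose by 1.97 ± 0.21 (adjusted p = 4.7e-10) and *Krt18* by 1.55 ± 0.23 (adjusted p = 5.41e-07), while *Elf3* was at -2.40 ± 0.16 and *Tfap2c* at -2.28 ± 0.18 (adjusted p = 9.08e-16 and 1.11e-13).

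The difference between the 16 h responses was tested as an interaction. Between *Etv5*-KO and RGd2, 4 of the 6 members were called, all higher. Of all genes 37.1% were called (4485 higher and 65 lower), with a median of 0.44 over all genes. *Krt8* differed by 2.27 ± 0.31 (adjusted p = 5.96e-07), 1.84 above that median. *Krt18* differed by 1.34 ± 0.32 (adjusted p = 0.00215), *Elf3* by 0.72 ± 0.20 (adjusted p = 0.00645) and *Tfap2c* by 0.80 ± 0.23 (adjusted p = 0.00964), which is 0.90, 0.28 and 0.36 above it. Under TMM scaling, which brought the median of all genes within 0.1 of 0 in every comparison, *Krt8* kept its call at 1.79 (adjusted p = 1.84e-04), whereas *Krt18* (0.86, adjusted p = 0.063), *Elf3* (0.28, adjusted p = 0.277) and *Tfap2c* (0.36, adjusted p = 0.443) lost theirs. The smaller member calls also rested on single libraries: *Krt18* was at 0.96 (adjusted p = 0.0533) without RGd2 2i replicate 31, and *Elf3* at 0.54 (adjusted p = 0.104) and *Tfap2c* at 0.77 (adjusted p = 0.0502) without *Etv5*-KO N16h replicate 18. Between *Rbpj*-KO and RGd2 no member was called, beside 4.01% of all genes and a median of 0.19. *Krt8* was at 0.83 ± 0.29 (adjusted p = 0.125) and passed with the clone as a block (0.87, adjusted p = 0.0334) and without *Rbpj*-KO 2i replicate 30 (1.24, adjusted p = 0.00494).

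The double and triple mutants were kept in CH or in N2B27, the media in which RGd2 cells had high keratin levels. Their *Krt8* and *Krt18* lay between RGd2 in 2i-p5 and RGd2 in the same medium. *Krt8* was at 255, 328 and 280 normalized counts in ER-dKO and 310, 426 and 381 in ETR-tKO, and *Krt18* at 180, 185 and 174 and at 240, 290 and 226. Against 2i-p5, 3 members were called in ER-dKO, 2 higher and 1 lower, beside 42.2% of all genes and a median of 0.21. In ETR-tKO 4 were called, 3 higher and 1 lower, beside 47.1% of all genes and a median of 0.23. *Krt8* was higher by 1.14 ± 0.21 (adjusted p = 4.23e-05) in ER-dKO and 1.502 ± 0.21 (adjusted p = 2.51e-07) in ETR-tKO, and *Krt18* by 0.75 ± 0.22 (adjusted p = 0.00761) and 1.23 ± 0.22 (adjusted p = 2.09e-05). *Krt18* in ER-dKO was 0.54 (adjusted p = 0.106) without 2i-p5 replicate 3.

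Set against RGd2 in the matching medium, where the number of passages differed, keratins were lower and *Elf3* higher in both mutants. ER-dKO had 5 called members against CH-p2, 1 higher and 4 lower, beside 49.6% of all genes and a median of 0.09. ETR-tKO had 5 against N72h, 2 higher and 3 lower, beside 59.0% and a median of 0.11. *Krt8* was at -2.96 ± 0.19 (adjusted p = 2.89e-16) in ER-dKO and -2.73 ± 0.19 (adjusted p = 1.25e-15) in ETR-tKO, *Krt18* at -3.39 ± 0.20 (adjusted p = 1.7e-17) and -3.95 ± 0.20 (adjusted p = 8.75e-20), and *Krt19* at -6.12 ± 0.49 (adjusted p = 1.08e-13) and -3.19 ± 0.42 (adjusted p = 3.7e-08). *Krt19* had normalized counts of 8.66, 8.18 and 3.22 in ER-dKO and 33.8, 17.1 and 16.6 in ETR-tKO. The RGd2 CH-p2 libraries had 362 to 641.

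*Elf3* was intermediate in both mutants as well, at 1445, 1240 and 1209 normalized counts in ER-dKO and 1305, 1434 and 1454 in ETR-tKO. It was above the matching medium by 1.14 ± 0.14 (adjusted p = 4.56e-09) and 2.42 ± 0.14 (adjusted p = 8.06e-18) and below 2i-p5 at -0.50 ± 0.13 (adjusted p = 0.00267) and -0.39 ± 0.13 (adjusted p = 0.0153). The last call was lost without 2i-p5 replicate 2 (-0.36, adjusted p = 0.0566) or ETR-tKO replicate 13 (-0.34, adjusted p = 0.0581). *Tfap2c* was at 1277, 1311 and 1330 in ER-dKO, within 2i-p5 (-0.11 ± 0.14, adjusted p = 0.574), and at 2425, 1646 and 1617 in ETR-tKO, where it was 5.16 ± 0.18 above N72h (adjusted p = 1.12e-24). In ER-dKO the sign of the *Tfap2c* difference depended on the reference, at 0.71 (adjusted p = 1.58e-04) against RGd2 in short 2i and 0.05 without 2i-p5 replicate 3. Against CH-p2 it was -0.44 ± 0.14 (adjusted p = 0.00958), and -0.37 (adjusted p = 0.0573) without CH-p2 replicate 4. The ETR-tKO value against 2i-p5, 0.43 ± 0.14 (adjusted p = 0.0156), was 1.25 (adjusted p = 4.62e-09) against RGd2 in short 2i and 0.19 (adjusted p = 0.337) under TMM scaling and lost its call without 2i-p5 replicate 1 (0.34, adjusted p = 0.0948) or 2 (0.36, adjusted p = 0.0812) and without ETR-tKO replicate 13 (0.21, adjusted p = 0.258).

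Over the 11 conditions, *Krt8* group means ran from 103 ± 4.94 normalized counts in RGd2 N16h to 2468 ± 253 (SD, n = 3) in N72h, a 24-fold span. N72h and CH-p2 overlapped and stood above all others, then *Rbpj*-KO N16h, *Etv5*-KO N16h, *Rbpj*-KO 2i, ETR-tKO and ER-dKO each overlapped the next, and *Etv5*-KO 2i, RGd2 2i and RGd2 2i-p5 overlapped one another above RGd2 N16h. For *Krt18* the span was 45.7-fold, and N72h did not overlap CH-p2. For *Tfap2c* it was 36-fold and for *Elf3* 12.8-fold. *Elf3* was highest in *Etv5*-KO 2i and *Rbpj*-KO 2i, which overlapped and stood above RGd2 2i, and lowest in RGd2 N16h and N72h, which overlapped. *Tfap2c* in ETR-tKO, CH-p2, 2i-p5, ER-dKO and *Etv5*-KO 2i each overlapped its neighbour in the order, whereas from RGd2 2i down *Etv5*-KO N16h, *Rbpj*-KO N16h, RGd2 N16h and N72h did not. An FPKM of at least 1 was reached by *Krt8*, *Krt18* and *Elf3* in all 11 conditions, by *Tfap2c* in 10, by *Krt19* in 2 and by *Krt7* in none.

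The balance of the *Krt8* and *Krt18* transcripts, which encode the partners of a filament, was read as a ratio in each library. The ratio of *Krt8* to *Krt18* in FPKM was 0.477 to 0.508 in the RGd2 N72h libraries and 0.855 to 0.993 in CH-p2, while RGd2 2i spanned 0.699 to 1.77 and 2i-p5 0.722 to 1.24. At N16h it was 0.635 to 0.753 in RGd2, 1.65 to 2.22 in *Rbpj*-KO and 1.73 to 1.83 in *Etv5*-KO. The log2 ratio at N16h was higher than RGd2 by 1.45 in *Rbpj*-KO and 1.37 in *Etv5*-KO, without overlap, and each two-sided exact permutation test gave p = 0.1. At N72h it differed from 2i-p5 by -0.97, also with an exact permutation p of 0.1. That is the smallest p that 3 libraries against 3, or 3 against 2, can give here, and no such comparison can pass 0.05. *Rbpj*-KO 2i (1.74 to 2.10) overlapped RGd2 2i (0.78, exact permutation p = 0.2), and the single mutants at N16h differed by 0.07 (exact permutation p = 0.9). ER-dKO was at 1.10 to 1.37 and ETR-tKO at up to 1.31.

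**Figure D4:**
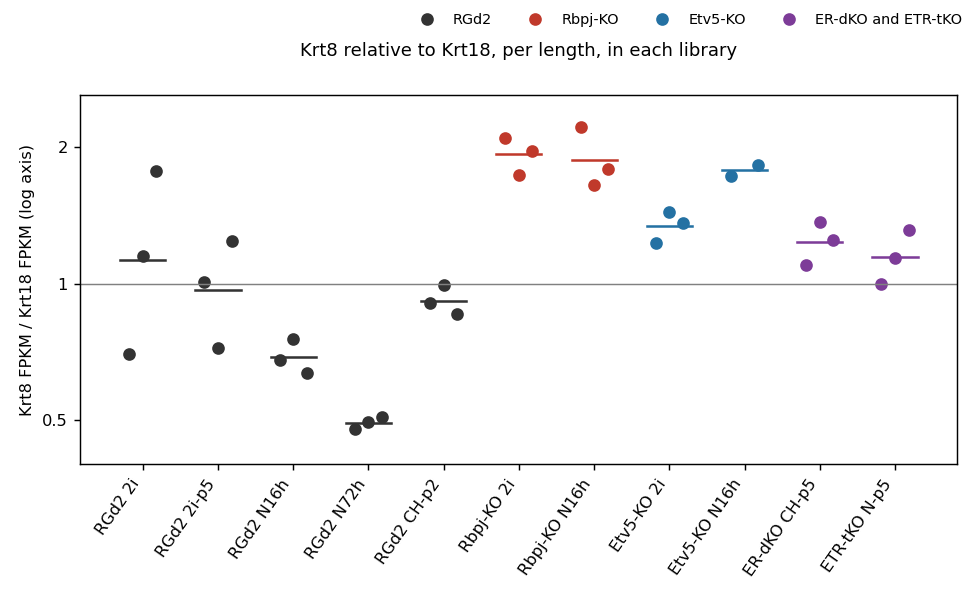
Ratio of *Krt8* to *Krt18* FPKM in each library on a logarithmic axis, by condition. Points are libraries and lines are geometric means. The 3 RGd2 N72h libraries lie at 0.477 to 0.508 and the *Rbpj*-KO and *Etv5*-KO N16h libraries at 1.65 to 2.22.

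Other genes near *Krt8* and *Krt18* moved in both directions. Within 250 kb, 9 genes other than the members reached an FPKM of 1. At N72h 2 of the 9 were called higher and 2 lower, beside 57.0% of all genes called. The higher ones were *Tns2* (a focal adhesion protein) at 2.18 and *Rarg* (a retinoic acid receptor) at 1.12 on the log2 scale. The lower ones were *Csad* at -0.51 and *Itgb7* at -0.79. In *Rbpj*-KO 2i none was higher and 4 were lower, beside 11.3% of all genes called. The *Krt8* pseudogene row had at most 1 count in any library.

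**Figure D5:**
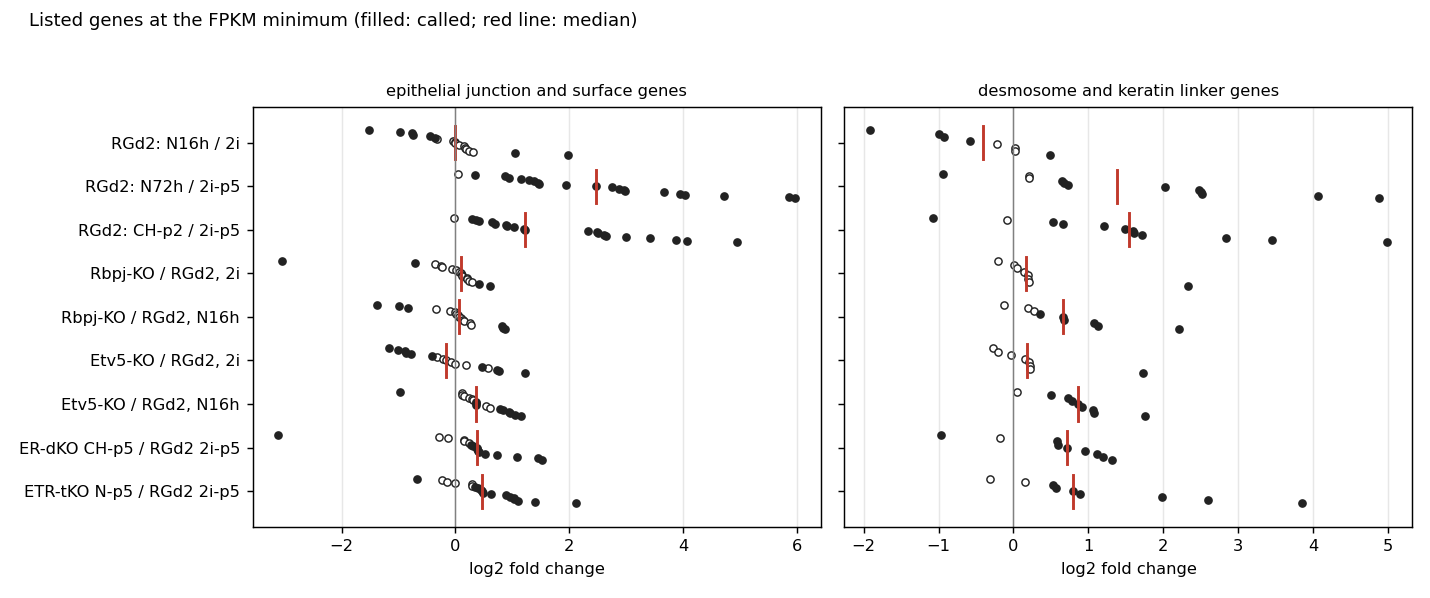
Log2 fold changes of the listed epithelial junction and surface genes and of the desmosome and plakin genes with an FPKM of at least 1, per comparison. Filled points passed the test and red lines are medians. The median of the junction genes is at 2.46 at N72h and at 0.07 in *Rbpj*-KO N16h.

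Desmosomes are the junctions to which keratin filaments attach. Of 13 desmosome and plakin genes in the table, 12 had an FPKM of at least 1 at N72h or in 2i-p5, and 9 rose and 1 fell (median log2 fold change 1.38, against 0.09 for all genes, of which 57.0% were called). They included *Ppl* (4.88) and *Dsc2* (4.07), a plakin and a desmosomal cadherin. In CH-p2 10 of 12 rose and 1 fell, with a median of 1.54 (all genes, 42.1% called). In the single mutants in 2i, 1 of 8 rose in *Rbpj*-KO, which was *Perp* (2.33), and 1 of 8 in *Etv5*-KO, which was *Dsp* (1.73), or 2 and 5 of 8 under TMM scaling (all genes, 11.3% and 33.8% called). At N16h, 6 of 9 rose in *Rbpj*-KO (median 0.66) and 8 of 9 in *Etv5*-KO (median 0.86), with *Dsg2*, a desmosomal cadherin, at 1.07 and 1.75 (all genes, 22.2% and 32.4% called). Against 2i-p5, 7 of 9 rose in ER-dKO (1 fell) and 7 of 9 in ETR-tKO, where 42.2% and 47.1% of all genes were called. After 16 h, RGd2 cells showed 1 of 8 higher and 4 lower, where 45.9% of all genes were called.

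Genes of tight and adherens junctions were read beside the keratins they accompany in epithelia. At N72h 20 of 21 rose and none fell (median 2.46, 57.0% of all genes called), led by the claudin gene *Cldn7* (5.97) and the vesicle transport gene *Rab25* (5.86). In CH-p2 20 of 21 rose (median 1.22, 42.1% of all genes called). In *Rbpj*-KO, 2 of 17 rose and 2 fell in 2i and 3 of 17 rose and 3 fell at N16h (median 0.07, and -0.07 under TMM scaling), beside 11.3% and 22.2% of all genes called. In *Etv5*-KO, 4 of 17 rose and 6 fell in 2i, where under TMM scaling 7 rose and 4 fell, and 8 of 18 rose and 1 fell at N16h (median 0.36), beside 33.8% and 32.4% of all genes. Of the 7 epithelial regulators measured, 5 rose and 2 fell both at N72h and in CH-p2. *Grhl2* and *Esrp1*, a transcription factor and a splicing factor, were at 3.85 and 4.89 at N72h and 4.26 and 4.47 in CH-p2, while *Grhl3*, a related transcription factor, was at -3.62 and -1.53. In *Rbpj*-KO N16h 2 of 5 rose and 2 fell against RGd2 N16h, with *Grhl2* at -1.78, *Esrp1* at -2.86 and *Grhl3* at 1.06. Among 50 other keratin genes, Krt17, Krt23 and Krt42 reached an FPKM of 1 in any group. Krt23 rose in CH-p2 (5.55, adjusted p = 3.97e-05), Krt17 rose at N72h (1.71, adjusted p = 0.00231) and in *Etv5*-KO N16h (1.88, adjusted p = 6.74e-04), and Krt42 fell at N72h (-4.21). Of the other AP-2 genes, *Tfap2a* alone reached an FPKM of 1 (1.05 in *Etv5*-KO 2i, where it rose by 1.29 with adjusted p = 0.00532). The epithelial ETS genes *Ehf*, *Elf5* and *Spdef* did not reach it. Among other intermediate filament genes, 9 of 12 rose and 3 fell at N72h. In *Rbpj*-KO 2i 2 of 8 rose and 3 fell and at N16h 2 of 10 rose and 2 fell, with *Nes*, the filament gene of neural progenitors, at 2.10 and 3.62 and the neuronal filament genes *Ina* at -2.41 and -1.58 and *Nefh* at -1.75 and -1.23. Of 3 mesenchymal regulators measured, 2 fell at N72h, and 2 fell and 1 rose in CH-p2, with *Zeb1* at -3.36 and -2.20, *Fn1* at -2.08 and -1.18 and *Cdh2* at 0.87 in CH-p2.

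The members are also made by trophoblast, and by the extraembryonic endoderm in the case of the keratins, so markers of these cells were read beside them. Of 16 trophoblast markers, *Tpbpa* and *Prl3d1* were at 0 in every group and *Elf5* was at 0 in RGd2 2i, 2i-p5, N16h and N72h. The summed FPKM of the list was 11.4 to 13.3 at N72h and 15.1 to 21.2 in CH-p2 against 20.8 to 23.6 in 2i-p5. Of the measured markers, 2 of 6 rose and 3 fell at N72h and 1 of 5 rose and 1 fell in CH-p2. Of all genes, 57.0% and 42.1% were called there. *Cdx2* was at -6.04 and 1.61 and *Tead4* at -2.62 and -2.16. The part of the trophoblast markers in the keratin levels of these media was not tested. At N16h the summed level was at most 16.3 in RGd2, 27.9 to 28.8 in *Rbpj*-KO and 30.6 to 31.8 in *Etv5*-KO. There 4 of 5 and 5 of 6 measured markers rose and 1 fell in each, beside 22.2% and 32.4% of all genes called. *Tead4* was at 1.88 and 1.95 and *Eomes* at 1.05 and 1.12. In 2i the summed level was 23.4 to 30.4 in RGd2, 40.0 to 45.3 in *Rbpj*-KO and 26.9 to 29.5 in *Etv5*-KO. In *Rbpj*-KO 2i, *Tead4*, *Eomes*, *Ets2* and *Plet1* were at 11.9, 11.1, 9.78 and 3.08 FPKM. RGd2 2i had 6.51, 3.47, 6.6 and 0.85. *Cdx2* and *Fgfr2* were lower, at 3.34 and 1.16 in *Rbpj*-KO 2i against 4.58 and 2.22. The part of these markers in the keratin values of the single mutants was not tested.

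Primitive endoderm markers, 13 in the list, moved with the keratins in some libraries. Of the measured markers, 8 of 8 rose at N72h, 3 of 3 in *Rbpj*-KO 2i, 5 of 6 in *Rbpj*-KO N16h and 1 of 3 in *Etv5*-KO N16h, where 57.0%, 11.3%, 22.2% and 32.4% of all genes were called, among them the basement membrane genes *Col4a1* (2.42 and 2.86 in the *Rbpj*-KO groups) and *Lama1* (1.78 and 2.64). Their summed FPKM was 144 and 167 in the *Rbpj*-KO libraries of clone c36 in 2i and at N16h, which also had the highest *Krt8*, *Krt18* and *Krt19* of their groups, and 58.6 to 76.7 in the other 4 *Rbpj*-KO libraries, against 46.2 to 59.5 in RGd2 2i and 36.2 to 50.1 in RGd2 N16h. In *Etv5*-KO it was 57.9 to 66.4 in 2i and 70.2 to 71.5 at N16h. At N72h it was 72.0, 75.0 and 172, the last in the clonal derivative, without which *Krt8* and *Krt18* were at 4.21 and 5.17. In CH-p2, where *Krt8* overlapped N72h, it was 26.3 to 34.8, below the 39.1 to 47.2 of 2i-p5. There 1 of 3 markers at an FPKM of 1 rose, *Col4a1* at 2.91, and 2 fell, *Sparc*, which holds most of the sum, at -0.70 and *Lama1* at -1.95, while the median over all 13 markers was 2.07. The summed level of 9 fibroblast markers was 8.16 to 8.91 FPKM at N72h and 3.58 to 5.27 in CH-p2 against 1.66 to 2.76 in 2i-p5. Of the measured fibroblast markers, 2 of 3 and 1 of 2 were higher, beside 57.0% and 42.1% of all genes called. The part of these markers in the keratin values was not tested. Of 8 naive pluripotency markers, 7 fell at N72h and 8 in CH-p2, while 7 and 8 were higher in *Rbpj*-KO and *Etv5*-KO at N16h than in RGd2 (5 and 7 under TMM scaling). Of 6 primordial germ cell markers, 5 of 5 fell at 16 h (4 under TMM scaling) and 6 of 6 at 72 h in RGd2, as *Tfap2c* did, and 6 of 6 were lower in ER-dKO than in 2i-p5, where *Tfap2c* was not called. The share of all genes called was 45.9% at 16 h, 57.0% at 72 h and 42.2% in ER-dKO.

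The profile of each member over the 11 condition means of log2 normalized counts was compared with those of 13336 genes by Pearson's r. The points share lines, media and spike-in scaling, and r is given as a description. *Krt18* was most like *Faxc* (0.968), *Lsr* (0.968, a tricellular junction receptor) and *Gmds* (0.967, a GDP-fucose synthesis enzyme). *Krt8* was most like *Rab11a* (0.953) and *Gmds* (0.949), followed by *Krt18* (0.942) and *Lsr* (0.941). For *Krt19* the closest were *Pomgnt2* (0.982), *8430429K09Rik* (0.975) and *Actn2* (0.964), and for *Krt7* *Tmem151a* (0.978), *Bik* (0.976) and *Rac3* (0.960). *Elf3* was most like *Enoph1* (0.975), *Mgat5* (0.967) and *Prep* (0.965), with r = 0.773 to *Tfap2c* and -0.624 to *Krt18*. The closest to *Tfap2c* were *Lgals8* (0.962), *Olfr718-ps1* (0.942) and *Gm48377* (0.939).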

How the data were processed

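Polyadenylated or ribosome-depleted RNA (the labels and the protocol differ) was sequenced as strand-specific paired-end libraries with ERCC spike-ins. The authors trimmed reads (Trim Galore), aligned them to GRCm38/mm10 and the spike-ins (TopHat2, Gencode M14) and deposited raw featureCounts counts of uniquely mapped reads per gene. Here those counts were tested with edgeR 4.0.16 (R 4.3.3), quasi-likelihood, 1 model of 32 libraries and 11 groups, spike-in median-of-ratios size factors as in the study, two-sided, Benjamini-Hochberg adjusted over 19037 genes that passed edgeR's expression filter. SE is the log2 fold change divided by the root of F. FPKM was computed from the counts and deposited gene lengths. Tables were handled with pandas 2.3.3 (Python 3.11.15). The members and gene lists were chosen with earlier results of these data known. All members are named, up to 3 called genes of each list with the largest change, and the 3 most alike genes. A count of gene rows without a symbol, 193, held 0.02589% of counts. On simulated counts for *Rbpj*-KO against RGd2 at N16h (19037 genes), 90 of 100 genes changed by 1 log2 unit and 100 of 100 changed by 2 were called, with 8 of 18837 unchanged genes. The changed genes were drawn from those above a count minimum. Every gene had the same spread and no difference between clones, so these rates do not carry over to genes with few counts or to clones that differ. Total gene counts of 5986857 to 71439411 set the precision, and spike-ins took 0.991 to 1.52% of counts. Clones pair the 2i and N16h libraries by label, and their deviations from group means correlated at 0.001 to 0.104 (*Rbpj*-KO), -0.067 and 0.004 (*Etv5*-KO) and 0.211 (RGd2 derivative). Alternatives were other scalings, DESeq2 1.42.0, separate models, no filters, a clone block, another control and each library left out. Replicate numbers and groups followed the labels where the methods give fewer RGd2 N16h replicates.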

Additional observations from a re-analysis of the deposited data

Results flagged for a closer look

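The 16 h response to N2B27 differed between *Etv5*-KO and RGd2 cells for 5 members by the interaction term of the edgeR model. At the same adjusted p below 0.05, 27.6% of all genes tested differed. The log2 difference was 2.27 for *Krt8* (adjusted p = 5.96e-07), 1.34 for *Krt18* (adjusted p = 0.00215) and 3.67 for *Krt19* (adjusted p = 0.0118, at an FPKM below 1). It was 0.72 for *Elf3* (adjusted p = 0.00645) and 0.80 for *Tfap2c* (adjusted p = 0.00964). Positive values are a response shifted upward in *Etv5*-KO. *Elf3* and *Tfap2c* fell in both genotypes, by -2.40 and -2.28 in *Etv5*-KO and by -3.12 and -3.08 in RGd2. *Krt8* changed from 162, 144 and 131 to 558 and 580 normalized counts in *Etv5*-KO and from 121, 116 and 165 to 97.0, 105 and 106 in RGd2. The median over all genes was 0.44, and *Krt8* was the member that passed under TMM scaling as well. Groups of 3 or fewer libraries were not searched for outlying samples.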

How the results depend on the processing

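Of 725 member values under other settings, 677 kept direction and call, 14 lost a call, 28 gained one and 6 changed sign. With each library left out in turn (561 values) the numbers were 519, 20, 8 and 14. Small changes in the number of called members are not all listed. Under TMM scaling *Tfap2c* lost its call in ETR-tKO against 2i-p5 and *Elf3* gained one in *Rbpj*-KO 2i. *Tfap2c* gained one in CH-p2 against 2i-p5 with only the libraries compared (0.33, adjusted p = 0.00489). Relatively larger changes in the number follow. With models of only the libraries compared it was 1 in *Rbpj*-KO 2i, *Etv5*-KO 2i and 2i-p5 against 2i. Under TMM or gene-based median-of-ratios scaling it was 1 in 2i-p5 against 2i and in the *Etv5*-KO interaction. In *Rbpj*-KO against *Etv5*-KO at N16h it was 2 without the FPKM minimum or with only those libraries. In the *Rbpj*-KO interaction it was 1 without the low-count filter or with the replicate block by clonal line. In *Rbpj*-KO 2i, for example, *Krt18* was at 0.86 (adjusted p = 0.0504) in the smaller model. The cause was not tested. The block changed the calls of *Krt8* in the *Rbpj*-KO interaction (0.87, adjusted p = 0.0334) and of *Krt18* in the *Rbpj*-KO 16 h response (0.61, adjusted p = 0.00532) and no other member's. The recount of the gene lists under other scalings was chosen after seeing the data.

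Signs changed for values that had not been called: *Krt18* in *Etv5*-KO 2i (0.0183 under TMM, 0.0117 under median-of-ratios), *Krt18* between the single mutants at N16h (-0.0782 with the block), *Tfap2c* in the *Rbpj*-KO interaction (-0.1476 and -0.1431 under the 2 gene-based scalings) and *Tfap2c* in ER-dKO (0.7121 against short 2i).

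With 1 library left out, called members numbered 1 to 3 in *Rbpj*-KO 2i, 1 to 2 in *Etv5*-KO 2i and in 2i-p5 against 2i, 2 to 4 in ETR-tKO against 2i-p5 and in the *Etv5*-KO interaction, 0 to 1 in the *Rbpj*-KO interaction, 2 to 4 in the *Rbpj*-KO 16 h response, 2 to 3 in ER-dKO against 2i-p5 and in *Rbpj*-KO against *Etv5*-KO in 2i, and 4 to 5 in CH-p2 against 2i-p5 and in ER-dKO against CH-p2. In the other 7 comparisons the number stayed. Log2 values whose sign changed ranged from -0.0043 to 0.5877 (*Krt18*, RGd2 16 h), -0.4484 to 0.1445 (*Krt18*, *Etv5*-KO 2i), -0.1968 to 0.0528 (*Tfap2c*, ER-dKO), -0.0111 to 0.3169 (*Krt8*) and -0.1333 to 0.2172 (*Krt18*) between the single mutants at N16h, -0.0411 to 0.1405 (*Krt8*) and -0.1185 to 0.4731 (*Krt18*) in 2i-p5 against 2i, and -0.0471 to 0.7327 (*Krt18*) and -0.1069 to 0.2022 (*Tfap2c*) in the *Rbpj*-KO interaction. *Krt7* and, outside N72h and CH-p2, *Krt19* rested on few counts, and the shallow RGd2 2i replicate 33 limited their values in 2i.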
